A study of Homo sapiens with 12 samples.

Results

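The Frizzled genes FZD1 to FZD10 encode the cell-surface receptors for Wnt proteins, and their transcripts were followed in U2OS cells, a human osteosarcoma line, with and without induced E2F1. The members were the rows of the counts whose symbol is FZD1 to FZD10, which gave 10 genes out of 25369. The family was chosen by the levels of FZD2 in these samples, whose difference from the controls was smaller in the R109K line. The values of FZD2 are therefore given as a description, with no test, and tests are given for the other 9 genes. Each of the 4 Tet-On lines, pTRE, WT, R109K, and KK, was sampled as 3 biological replicates after 24 hours with doxycycline at 1 μg/ml. The pTRE line carries the empty vector, WT carries HA-tagged wild-type E2F-1, R109K carries HA-tagged E2F-1 in which the arginine of that position is a lysine, and KK carries HA-tagged E2F-1 with lysines in place of the next pair of arginines, R111 and R113. All lines share the Tet-On U2OS background, selection in G418 and hygromycin B, and the doxycycline, and each construct is represented by a single stable line, so that construct and line cannot be told apart. The sources used here do not say whether a line was a clone.

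A Frizzled protein binds a Wnt ligand through a cysteine-rich domain outside the cell. Together with the co-receptor LRP5 or LRP6 it recruits Dishevelled, which spares β-catenin from degradation and lets it act with the TCF and LEF factors in the nucleus. With ROR1 or ROR2, Frizzled proteins also signal without β-catenin, and some of them set planar cell polarity. In bone, Wnt signaling promotes the osteoblast lineage. By sequence the family falls into 4 branches, which order the results here. FZD1, FZD2, and FZD7 form one, FZD5 and FZD8 another, FZD3 and FZD6 the next, and FZD4, FZD9, and FZD10 the last.

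The libraries held 11500537 to 31040903 reads assigned to genes. The shallowest was WT replicate 2, with 58.7% of its reads outside annotated genes against 23.6% to 29.6% in the other 11 samples, and results that change without it are given beside that change. Levels are given as CPM, counts scaled to a common total of reads on TMM-normalized library sizes. E2F1 RNA, which takes in the cells' own transcript and the construct, lay between 82.95 and 101.5 CPM in pTRE, 1469 and 2315 in WT, 932 and 1283 in R109K, and 1112 and 1478 in KK. R109K overlapped KK, and every R109K sample was below every WT sample, with a log2 difference of -0.65 (95% interval -1.02 to -0.27, adjusted p = 0.0577 from edgeR). The part of this difference in the FZD2 and FZD8 values given below was not tested. Of 8 markers of the osteoblast lineage, 4 had a median above 1 CPM in each line, among them RUNX2 (7.78 to 18.75 CPM over all samples) and COL1A1, while COL1A2, SP7, BGLAP, and IBSP stayed under 1 CPM. Their summed level, almost all of it COL1A1, was 3308 to 4108 CPM in pTRE and 556 to 945 CPM in the 3 induced lines. The mesenchymal markers VIM and CDH2 ranged from 1150 to 1793 CPM and from 80.4 to 195.8 CPM over all samples. Of 5 epithelial markers, KRT8, KRT18, and EPCAM were present, CDH1 lay between 0.509 and 1.44 CPM, and KRT19 was at or near 0. The summed level of these 5 was 744 to 919 CPM in pTRE and 365 to 659 CPM in the induced lines. The part of these marker differences in the Frizzled values was not tested. The defining leukocyte and endothelial markers PTPRC, CD3E, PECAM1, and CDH5 stayed under 1 CPM, while CD68, a lysosomal protein not confined to leukocytes, reached 14.0 to 27.5 CPM and VWF 0.562 to 2.81 CPM.

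In pTRE cells the family was led by FZD6 and FZD2. Lengths of the annotated exons, from 2343 bases for FZD9 to 13786 bases for FZD3, differ between the genes, so that levels were compared between genes only as CPM per kilobase. On this scale FZD6 stood at 23.3 ± 1.84 in pTRE (SD, n = 3) and FZD2 at 17.1 ± 3.28. FZD7 followed at 6.76 ± 0.854 and FZD1 at 4.07 ± 0.125, whereas FZD4, FZD5, FZD3, and FZD8 lay between 1.74 and 2.63, and the SDs of FZD5 (0.142) and FZD3 (0.302) were wider than the gap between them. FZD9 stood at 0.637 ± 0.204 and FZD10 at 0.0842 ± 0.0641, the lowest level of the family. In bulk RNA, fewer cells that express a gene and less RNA per cell cannot be told apart.

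Compared with pTRE, FZD1, FZD5, FZD8, and FZD10 were higher in all 3 E2F1 lines, with no overlap of samples. FZD2, whose values chose the family, was lower in all 3. A gene was called at an adjusted p-value below 0.01 (edgeR's quasi-likelihood test, Benjamini-Hochberg over 16625 tested genes) and a change over 2-fold. FZD8 passed both thresholds in all 3 lines, FZD1 in WT and KK, FZD5 in WT, and FZD10, a gene of few reads, in R109K. FZD1 in R109K (1.96-fold) and FZD5 in KK (1.99-fold) and R109K (1.90-fold) lay just under 2-fold. FZD10 missed the adjusted p-value in WT and KK (0.0134 and 0.0217 from edgeR). All 10 members had enough counts to be tested. Among the 9 members with a test, 3 were called in WT against pTRE, 2 in KK, and 2 in R109K, and all of these were higher. Of all tested genes, 11.8% were called in WT, 10.9% in KK, and 7.19% in R109K, and 7.89%, 7.01%, and 4.64% were called as higher. The median log2 fold change of the 9 members was 0.60 in WT, 0.71 in KK, and 0.77 in R109K, beside 0.0022, -0.0091, and -7e-04 over all tested genes. In each line this median is the value of FZD9, a gene of few reads that was not called. The values of FZD3, FZD4, FZD6, and FZD7 lay between -0.28 and 0.09, so that the median does not describe a shift of the whole family. All 3 comparisons use the same pTRE samples. The samples of the compared lines did not overlap for 4 of the 9 members in WT, 4 in KK, and 5 in R109K, where 51.5%, 49.4%, and 47.2% of all tested genes did not overlap either.

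**Figure D1:**
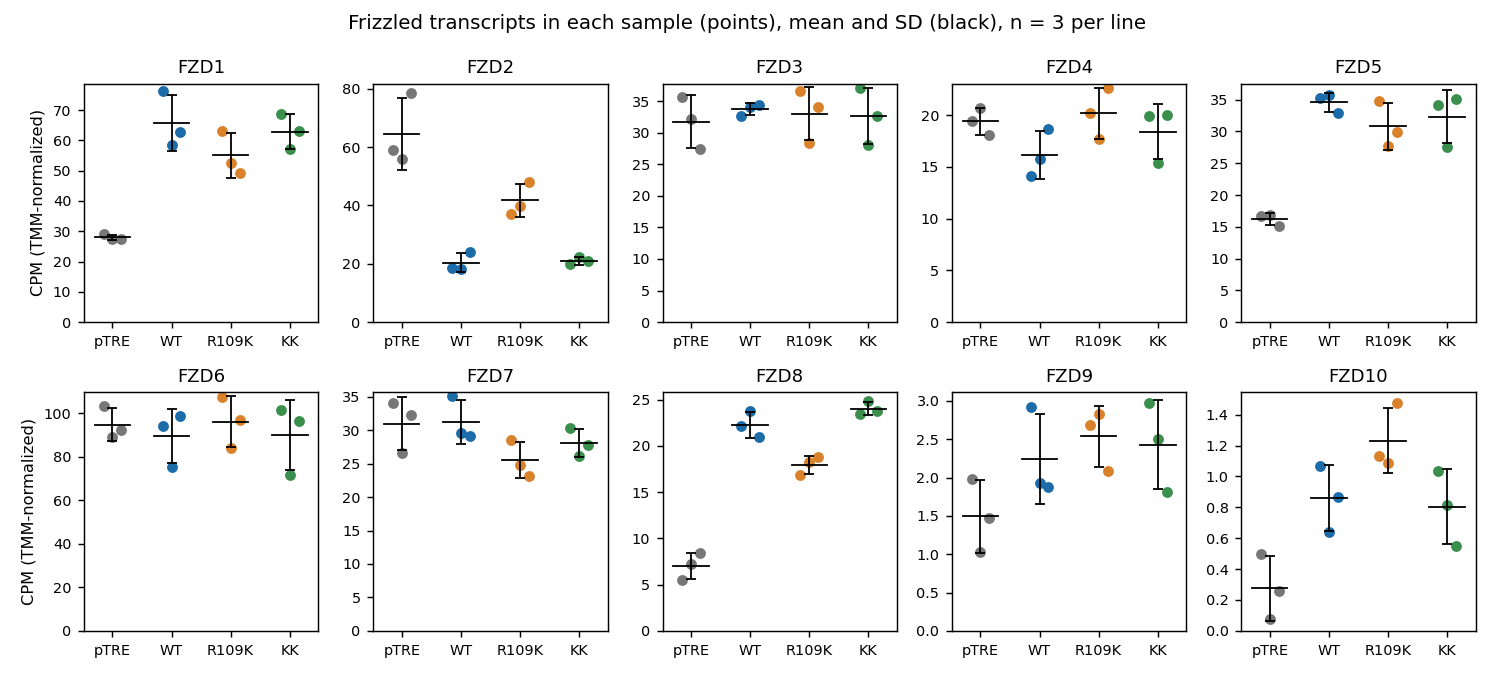
Level of each Frizzled gene in CPM (vertical axis, from 0, its range differing between panels) in the 3 samples of each line (horizontal axis). Points are samples, and black lines and bars are the mean and SD. FZD1, FZD5, and FZD8 lie higher in every E2F1 sample than in every pTRE sample, FZD2 lies lower, and in FZD3 and FZD6 the lines overlap.

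The promoters of FZD1, FZD5, and FZD8 are shown because these are the members called in WT against pTRE. Each line gives 250 bases before and 30 bases after the annotated start of transcription on GRCh37, the build that the reads were aligned to, 5′ to 3′ in the direction of the gene. Capitals mark CCAAT, the box bound by NF-Y, here read on the opposite strand as ATTGG.
FZD1 (chr7:90893498-90893777, plus strand): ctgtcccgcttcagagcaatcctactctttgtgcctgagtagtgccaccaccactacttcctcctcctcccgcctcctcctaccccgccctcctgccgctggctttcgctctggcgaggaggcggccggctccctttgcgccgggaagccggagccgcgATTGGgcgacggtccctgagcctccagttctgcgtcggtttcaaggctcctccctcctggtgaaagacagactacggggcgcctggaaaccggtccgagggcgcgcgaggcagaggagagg
FZD5 (chr2:208634601-208634880, minus strand): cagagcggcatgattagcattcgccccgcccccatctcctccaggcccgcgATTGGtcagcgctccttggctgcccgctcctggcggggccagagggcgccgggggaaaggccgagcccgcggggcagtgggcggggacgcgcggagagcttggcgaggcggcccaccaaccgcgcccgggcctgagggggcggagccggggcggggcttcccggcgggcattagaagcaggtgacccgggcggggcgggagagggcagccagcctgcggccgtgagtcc
FZD8 (chr10:35931195-35931474, minus strand): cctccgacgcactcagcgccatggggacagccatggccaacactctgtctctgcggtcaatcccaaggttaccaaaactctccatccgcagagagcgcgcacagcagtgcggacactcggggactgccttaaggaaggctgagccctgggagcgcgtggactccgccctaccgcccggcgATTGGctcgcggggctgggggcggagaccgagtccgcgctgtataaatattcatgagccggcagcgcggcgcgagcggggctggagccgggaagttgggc

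The 8-letter E2F consensus was searched as TTTCCCGC, TTTGGCGC, TTTCGCGC, and TTTGCCGC on both strands, from 900 bases before to 100 bases after the start. It was found in 0 of the 8 Frizzled promoters examined, against 7.62% of 17866 protein-coding promoters. At so low a share, 0 of 8 does not set the Frizzled promoters apart. The paper defined E2F targets by consensus motifs in the same window, and its motif definition was not used here. The CCAAT box, looked for after the sequences had been read, was present in 5 of the 8 windows of 280 bases, against 34.9% of all protein-coding promoters of that length. It lay 91 bases before the start in FZD1, 199 in FZD5, and 70 in FZD8. FZD4 and FZD7 had it too, and FZD3, FZD6, and FZD9 did not. The windows with the box thus included genes that were called and genes that were not. These matches describe letters and are not binding sites.

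FZD1, FZD2, and FZD7 are the closest relatives of the family, and they differed in how the E2F1 lines compared with pTRE. FZD1 (chromosome 7, 90893748 to 90900641, a gene of 1 exon) stood at 29.0, 27.5, and 27.6 CPM in pTRE replicates 1, 2, and 3. In WT its levels were 76.3, 58.5, and 62.7 CPM, in KK 68.6, 56.99, and 63.0 CPM, and in R109K 63.2, 52.7, and 49.1 CPM. Every E2F1 sample was above every pTRE sample, and the pTRE samples were the tightest group. FZD1 was higher than in pTRE by 2.35-fold in WT (log2 1.23, standard error 0.13, adjusted p = 3.67e-06 from edgeR) and 2.24-fold in KK (log2 1.17, adjusted p = 6.26e-06). In R109K the ratio was 1.96, with an adjusted p of 5.56e-05 but a change under 2-fold, so that it was not called. Without R109K replicate 2 or 3 the log2 value was 1.00 or 1.05, and FZD1 was called. When the change was tested against 2-fold itself (edgeR's glmTreat), FZD1 was not called in WT (adjusted p = 0.176) or KK (adjusted p = 0.431).

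FZD2 (chromosome 17, 42634852 to 42638630, 1 exon) went the other way. Its level in replicates 1, 2, and 3 was 58.9, 55.9, and 78.6 CPM in pTRE. In WT it was 18.6, 18.2, and 24.0 CPM, and in KK it was 19.8, 22.4, and 20.8 CPM. In R109K it was 36.95, 39.9, and 48.2 CPM, above every WT and KK sample and below every pTRE sample. The order was thus pTRE, then R109K, then KK and WT, whose samples overlapped. The fitted log2 difference from pTRE was -1.66 in WT, -1.62 in KK, and -0.63 in R109K. Set directly beside each other, R109K exceeded WT by 1.03 and KK by 0.99, and KK and WT differed by 0.05. These values chose the family, so that they are given without intervals and carry no test.

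FZD7 (chromosome 2, 202898578 to 202903164, 1 exon), the third member of the branch, ranged from 26.6 to 34.1 CPM in pTRE, 29.1 to 35.1 CPM in WT, 26.2 to 30.3 CPM in KK, and 23.2 to 28.6 CPM in R109K. Its log2 differences from pTRE were 0.01 in WT (95% interval -0.26 to 0.29), -0.14 in KK (-0.42 to 0.14), and -0.28 in R109K (-0.56 to 0.0007), which leaves a change of 2-fold outside all 3 intervals. Every R109K sample was below every WT sample, with a log2 difference of -0.29 (95% interval -0.57 to -0.01, adjusted p = 0.207 from edgeR).

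The branch also bears on how well reads can be assigned. FZD1 and FZD2 share an identical run of 81 bases inside the coding sequence, at chr7:90895377-90895457 in FZD1 and chr17:42636013-42636093 in FZD2. It is shown because a read lying wholly inside it cannot be given to either gene.
FZD1 and FZD2: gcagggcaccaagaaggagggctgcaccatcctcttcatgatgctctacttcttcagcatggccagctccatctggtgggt
FZD2 and FZD7 share a run of 69 bases, and no run of 50 bases or more was shared between FZD1 and FZD7. In all, 307 of the 3779 bases of the FZD2 transcript lie in runs of at least 50 bases shared with any other gene, against 81 of 6894 in FZD1 and 69 of 4587 in FZD7. Reads that align to more than 1 place were kept out of the gene counts as a summary line of their own.

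Measured per kilobase, FZD1 and FZD2 changed places. In the pTRE samples FZD2 exceeded FZD1 by 3.70, 3.70, and 5.2-fold in replicates 1, 2, and 3. In WT the ratio of FZD1 to FZD2 was 2.24, 1.77, and 1.43, and in KK it was 1.90, 1.39, and 1.66. The R109K samples kept FZD2 ahead, by 1.07, 1.38, and 1.79-fold. These ratios contain FZD2 and are given without a test.

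FZD5 and FZD8, the second branch, were both higher in the E2F1 lines than in pTRE. FZD8 (chromosome 10, 35927175 to 35931224, 1 exon) stood at 5.54, 7.22, and 8.38 CPM in pTRE replicates 1, 2, and 3. It reached 22.2, 23.8, and 20.96 CPM in WT, 23.5, 24.8, and 23.8 CPM in KK, and 16.9, 18.3, and 18.8 CPM in R109K. All E2F1 samples were above all pTRE samples, and all R109K samples were below all WT and KK samples. FZD8 rose 3.15-fold in WT (log2 1.66, standard error 0.14, adjusted p = 4.82e-07 from edgeR), 3.4-fold in KK (log2 1.77, adjusted p = 2.28e-07), and 2.54-fold in R109K (log2 1.35, adjusted p = 6.28e-06). It was the only one of the 9 tested members called in all 3 lines. Tested against 2-fold itself with edgeR's glmTreat, FZD8 was called in WT (adjusted p = 0.00111) and KK (adjusted p = 2.79e-04), and its adjusted p in R109K was 0.0948. The microRNA gene MIR4683 is annotated on the same strand within the exon of FZD8, and 339 of its 4050 bases lie in runs of at least 50 bases shared with another gene.

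FZD5 (chromosome 2, 208627322 to 208634630, 2 exons) stood at 16.7, 16.9, and 15.1 CPM in pTRE. Its levels were 35.2, 35.7, and 32.9 CPM in WT, 34.2, 27.6, and 35.2 CPM in KK, and 34.8, 27.7, and 29.97 CPM in R109K. Every E2F1 sample was above every pTRE sample, while the E2F1 lines overlapped each other. FZD5 rose 2.13-fold in WT (log2 1.09, standard error 0.13, adjusted p = 9.83e-06 from edgeR). In KK the ratio was 1.99 (log2 0.99, adjusted p = 2.38e-05) and in R109K 1.90 (log2 0.92, adjusted p = 7.30e-05), and neither was over 2-fold. The KK value lies at the threshold, and FZD5 was called in KK with DESeq2 (log2 1.00), with RLE normalization (log2 1.00), with at least 10 counts in every sample (1.00), with only the 6 samples compared (1.01), and without pTRE replicate 1 (1.01), pTRE replicate 2 (1.02), or KK replicate 2 (1.09). Tested against 2-fold itself, it was not called in WT (adjusted p = 0.81 from edgeR).

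FZD3 and FZD6, which are known for planar cell polarity in hair and neural tissue, stayed near their pTRE levels. FZD6 (chromosome 8, 104310661 to 104345094), the most abundant member per kilobase in every line, stood at 94.8 ± 7.49 CPM in pTRE (SD, n = 3 here and below), 96.2 ± 11.7 in R109K, 89.5 ± 12.4 in WT, and 89.9 ± 16.1 in KK. FZD3 (chromosome 8, 28351722 to 28431784) stood at 31.8 ± 4.16, 33.0 ± 4.24, 33.7 ± 0.911, and 32.6 ± 4.47 CPM in the same order. The replicates of the lines overlapped for both genes. The log2 differences from pTRE lay between -0.08 and 0.09, none of the 6 passed the test, and the widest of their 95% intervals reached from -0.40 to 0.24. A 2-fold change was therefore outside the interval in each line. The lowest FZD6 sample of all was KK replicate 2, at 71.5 CPM, followed by WT replicate 2 at 75.5 CPM. FZD6 shares 138 bases of exon with BAALC-AS1 on the opposite strand, and whether the counts used the strand is not stated in the sources used here.

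FZD4, FZD9, and FZD10 gave no common picture. FZD4 (chromosome 11, 86656721 to 86666437), which also serves as the receptor of norrin, ranged from 18.1 to 20.7 CPM in pTRE, 14.1 to 18.7 CPM in WT, 15.4 to 19.98 CPM in KK, and 17.7 to 22.6 CPM in R109K. Its log2 differences from pTRE were -0.26, -0.07, and 0.06 in WT, KK, and R109K, and its adjusted p was 0.169 or above in all 3. FZD4 shares exon sequence with PRSS23, which lies on the opposite strand, and whether the counts used the strand is not stated in the sources used here. In all, 1589 of the 7387 bases of FZD4 lie in runs of at least 50 bases shared with other genes, the longest of 1260 bases.

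FZD9 and FZD10 had few reads, and their values are less precise. FZD10 (chromosome 12, 130647004 to 130650285, 1 exon) had 12, 2, and 7 reads in pTRE replicates 1, 2, and 3. It had 30, 8, and 24 reads in WT, 30, 17, and 14 in KK, and 35, 30, and 36 in R109K. In CPM, all samples of each E2F1 line were above all pTRE samples, and all R109K samples were above all WT and KK samples. Its rise in R109K was 4.45-fold (log2 2.15, 95% interval 1.14 to 3.16, adjusted p = 0.0031 from edgeR). The log2 fold change was 1.67 in WT (0.63 to 2.72, adjusted p = 0.0134) and 1.55 in KK (0.50 to 2.59, adjusted p = 0.0217), both not called with edgeR. DESeq2 called FZD10 in WT (adjusted p = 0.00828) but not in KK (adjusted p = 0.0161). The call in R109K was lost without pTRE replicate 2 (log2 1.71, adjusted p = 0.0152), without pTRE replicate 3 (adjusted p = 0.0173), and without R109K replicate 3 (adjusted p = 0.0141). It was gained in WT without WT replicate 2 (adjusted p = 0.00756) and in WT and KK without pTRE replicate 1 (adjusted p = 0.00471 and 0.00679). The size moved with the pTRE samples as well. Without pTRE replicate 1 the log2 values in WT, KK, and R109K were 2.35, 2.23, and 2.84, and without pTRE replicate 2 they were 1.22, 1.10, and 1.71. Tested against 2-fold itself, FZD10 was not called in R109K (adjusted p = 0.11 from edgeR's glmTreat). FZD9 (chromosome 7, 72848108 to 72850450, 1 exon) ranged from 1.03 to 1.98 CPM in pTRE and from 1.82 to 2.98 CPM in the E2F1 lines. Its log2 fold change was 0.60 in WT, 0.71 in KK, and 0.77 in R109K, with adjusted p-values of 0.12, 0.0741, and 0.0636.

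The E2F1 lines were then compared with each other. These are differences between lines, and an effect of the lysine substitutions cannot be told apart from other differences between the lines. Apart from FZD2, 0 of the 9 members were called between R109K and WT, between R109K and KK, or between KK and WT, with edgeR and with DESeq2. At an unadjusted p-value under 0.05 both tools counted 3, 1, and 0 members in these comparisons. Calls were rare over all tested genes as well, at 0.343%, 0.0902%, and 0.00602%, and 22.3%, 12.4%, and 8.51% had an unadjusted p-value under 0.05. The samples did not overlap for 3 members between R109K and WT (FZD7, FZD8, and FZD10), 2 between R109K and KK (FZD8 and FZD10), and 0 between KK and WT, against 27.1%, 21%, and 9.97% of all tested genes. FZD8 was lower in R109K than in KK by a log2 difference of -0.42 (95% interval -0.71 to -0.13, adjusted p = 0.164 from edgeR) and lower than in WT by -0.31 (-0.60 to -0.02, adjusted p = 0.198). Both intervals lie within 2-fold. FZD1 differed between R109K and WT by -0.26 (-0.53 to 0.01, adjusted p = 0.241), FZD5 by -0.17 (-0.43 to 0.10, adjusted p = 0.436), and FZD4 by 0.32 (0.0046 to 0.63, adjusted p = 0.217). FZD10 was higher in R109K than in WT by 0.48, an interval of -0.42 to 1.38 that includes both no difference and more than 2-fold. Between KK and WT, the log2 differences of the 9 members ran from -0.15 to 0.19.

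**Figure D2:**
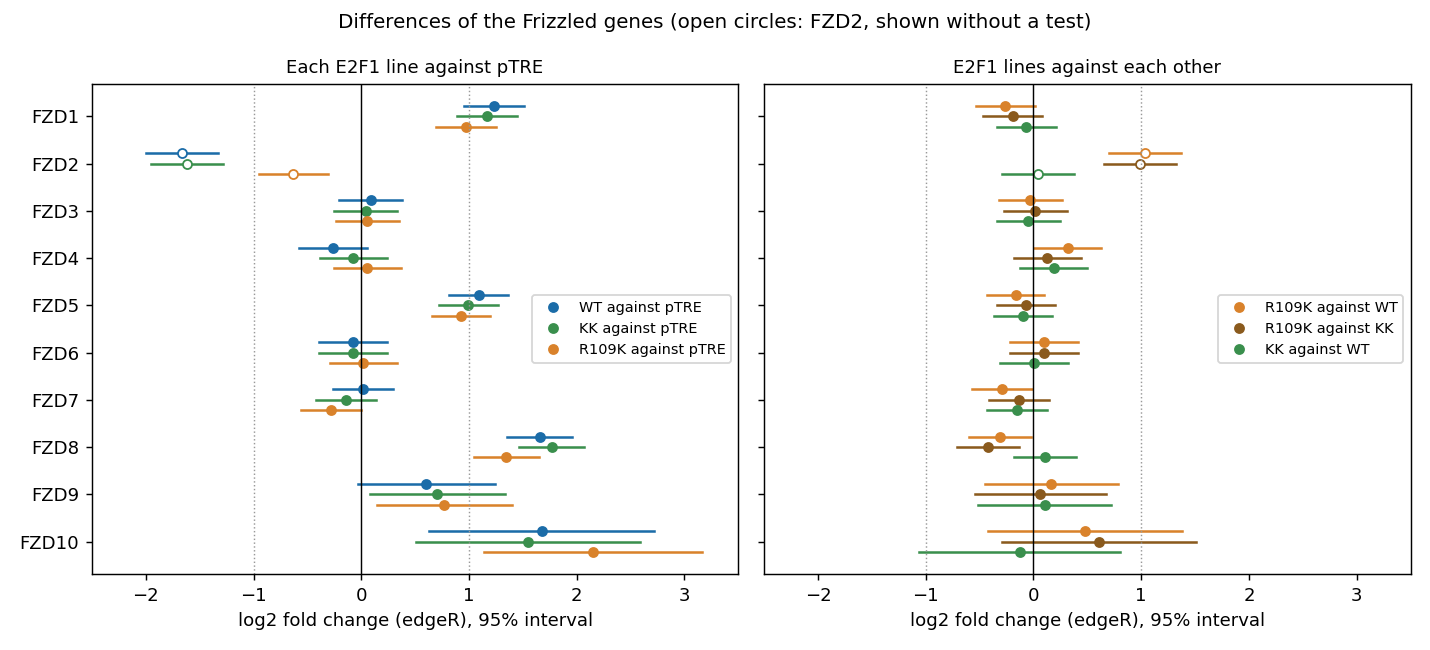
Log2 fold changes from edgeR (horizontal axis) for each Frizzled gene (vertical axis), with bars for 95% intervals and dotted lines at 2-fold. On the left each E2F1 line is set against pTRE and on the right the E2F1 lines against each other. FZD2 (open circles) lies at -1.66, -1.62, and -0.63 against pTRE, and FZD8 lies between 1.35 and 1.77. The bars of FZD2 do not allow for its choice by these same values and are not to be read as a test.

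The sum of the family hardly moved while its makeup did. Added over the 10 genes, the level per kilobase was 60.9 ± 4.09 in pTRE (SD, n = 3), 60.0 ± 4.49 in WT, 59.6 ± 5.92 in KK, and 63.6 ± 4.50 in R109K, and the samples of all lines overlapped. FZD6 made up 38.3 ± 2.59% of this sum in pTRE and between 36.6% and 37.1% in the E2F1 lines. The share of FZD2 was 24.9% to 32.6% in the pTRE samples, 7.81% to 10.3% in WT, 8.14% to 11.2% in KK, and 14.5% to 19.7% in R109K. That of FZD1, FZD5, and FZD8 together was 12.7% to 14.5% in pTRE, 30.5% to 35.4% in WT, 32.0% to 34.6% in KK, and 24.8% to 27.4% in R109K. R109K lay between pTRE and the other E2F1 lines in both shares, without overlap. The share of FZD2 restates the values that chose the family. The other share joins the genes called in WT and has FZD2 in its sum, so that it is not a separate result. On their own, the levels of FZD1 and FZD5 overlapped between R109K and both other E2F1 lines. The shares rest on annotated exon lengths, which may differ from the transcripts used in these cells, and they contain FZD2, so that no test is given.

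**Figure D3:**
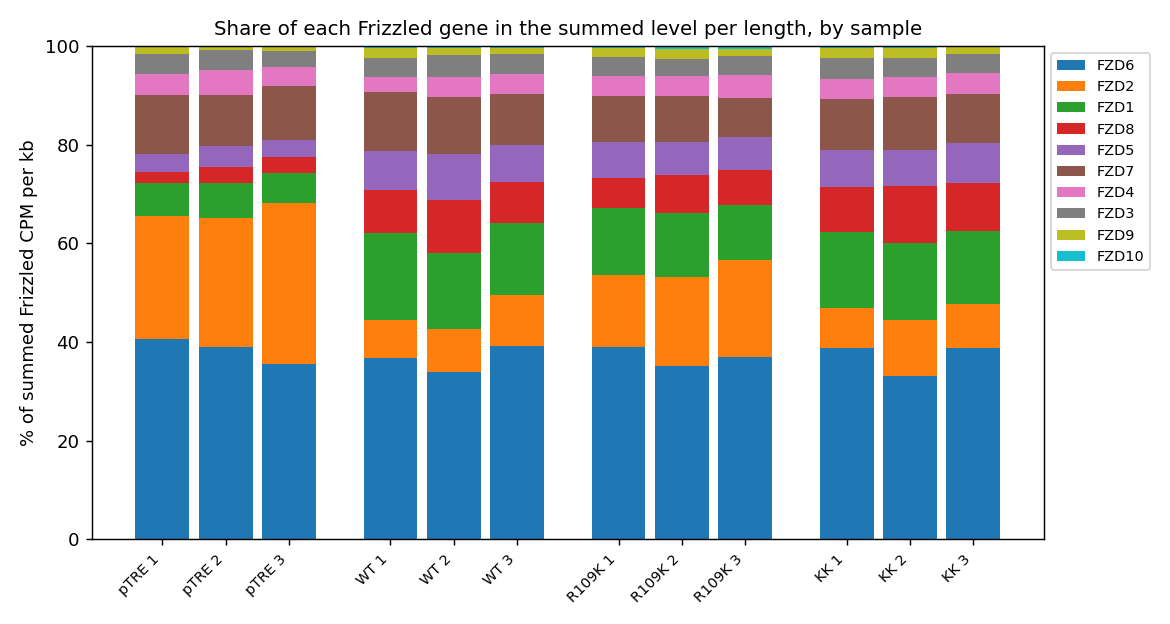
Share of each Frizzled gene in the summed level per kilobase (vertical axis, in percent) for each of the 12 samples (horizontal axis, by line and replicate). FZD6 keeps 33.2% to 40.6% in all samples, while FZD2 takes 24.9% to 32.6% in pTRE, 14.5% to 19.7% in R109K, and at most 11.2% in WT and KK.

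The genes whose pattern over the 12 samples was most like that of FZD2 were PDLIM1 (Pearson r = 0.985 of log2 CPM), EDN2 (0.984), TGIF1 (0.983), OGFOD3 (0.979), and GPX8 (0.976), out of 13304 tested genes whose mean count reached 50. These correlations are descriptions over samples that share lines and libraries, and correlations within lines were not computed. PDLIM1, a PDZ and LIM domain protein of the actin cytoskeleton, had mean levels of 24.4, 5.87, 4.93, and 16.0 CPM in pTRE, WT, KK, and R109K. TGIF1, a homeodomain repressor, had 37.9, 19.98, 19.5, and 28.1 CPM in the same order. Among the Frizzled genes the correlation with FZD2 was most negative for FZD1 (-0.88), FZD8 (-0.85), and FZD5 (-0.85). These genes were higher than in pTRE in the E2F1 lines, where FZD2 was lower. Their negative values thus restate the comparisons with pTRE and are not a separate result.

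Other genes of the Wnt pathway were described from 7 lists that hold 121 genes, of which 105 had enough counts to be tested. In WT against pTRE, 25 of the 105 were called (23.8%), 14 higher and 11 lower. The numbers were 24 in KK (22.9%, 13 higher and 11 lower) and 17 in R109K (16.2%, 10 higher and 7 lower). Over all tested genes, 11.8% were called in WT, 10.9% in KK, and 7.19% in R109K. The median log2 fold change of the 105 genes was 0.01 in each line. The lists were made with earlier results of these data known, and nothing is taken as particular to them.

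Among ligands and their export factors, 7 of 17 tested genes were called in WT, 7 in KK, and 2 in R109K. The shares over all tested genes were 11.8%, 10.9%, and 7.19%. WNT3, a ligand of the β-catenin branch, rose from 12.1 ± 0.526 CPM in pTRE to 29.4 ± 3.38 in WT and 27.9 ± 2.47 in KK (SD, n = 3 each), and stood at 22.96 ± 1.07 in R109K (log2 0.92, not over 2-fold). The 2 called in R109K were WNT2 and WNT9A, genes of low count that are named after their values were seen. WNT4 was called in WT (log2 1.71, adjusted p = 0.00479 from edgeR), where its samples stood at 2.85, 7.23, and 2.35 CPM. Without WT replicate 2, the shallow library and the highest of the 3, its log2 value was 1.10 with an adjusted p of 0.0159, and the call was lost without any 1 of the pTRE samples as well (adjusted p = 0.0126 to 0.0266). WNT6 and WNT5B fell in WT (log2 -2.00 and -1.28) and in KK (-2.11 and -1.48), and in R109K their values were -1.23 and -0.87 with adjusted p-values of 0.0126 and 0.0177. The WNT5B call in WT was lost without pTRE replicate 3 (log2 -1.05, adjusted p = 0.0105).

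Of 10 tested co-receptors and other Wnt receptors, 2 were called in WT and in KK and 3 in R109K. Beside these stand 11.8%, 10.9%, and 7.19% of all tested genes in WT, KK, and R109K. The related receptors ROR1 and ROR2 moved in opposite directions in all 3 lines. ROR2 rose from 14.0 ± 2.11 CPM in pTRE to 42.1 ± 2.69 in WT, 44.5 ± 3.73 in KK, and 34.9 ± 1.94 in R109K. ROR1 fell from 18.9 ± 4.07 CPM to 5.30 ± 0.802, 6.65 ± 0.946, and 5.27 ± 1.13. LRP5 fell in R109K (log2 -1.11, adjusted p = 2.91e-04), and in WT and KK its log2 values were -0.83 and -0.75, not over 2-fold. Without pTRE replicate 3 or R109K replicate 2, LRP5 stood at -0.92 or -0.99 in R109K and was not called. LRP6, at 166 to 217 CPM in the means of the lines, did not pass the test in any line. SMO, a relative of the Frizzled proteins that serves Hedgehog signaling, had log2 values of -0.25, -0.16, and -0.15 in WT, KK, and R109K, none called.

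Secreted and membrane modulators had 9 of 19 tested genes called in WT, 8 in KK, and 7 in R109K. The shares over all tested genes were 11.8%, 10.9%, and 7.19%. RNF43, a ubiquitin ligase that removes Frizzled proteins from the membrane, fell from 10.5 ± 3.04 CPM in pTRE to 1.73 ± 0.821 in WT, 2.64 ± 0.410 in KK, and 2.55 ± 0.867 in R109K. NOTUM, an enzyme that inactivates Wnt by removing its lipid, rose from 7.22 ± 0.737 CPM to 47.3 ± 7.10, 46.7 ± 8.29, and 32.0 ± 2.72. KREMEN2, which acts with DKK proteins against LRP6, fell (log2 -2.18 in WT, -2.07 in KK, and -1.68 in R109K). GPC3, a glypican, rose (1.18, 1.35, and 1.96), and LGR5, a receptor of R-spondins, rose as well (1.47, 1.07, and 1.25). The mean level of LGR5 was 1.66 CPM in pTRE and 4.62, 3.48, and 3.97 CPM in WT, KK, and R109K. Its more abundant relative LGR4, named after its values were seen, was called as lower in each line. LGR4 fell from 38.9 CPM in pTRE to 15.4, 14.3, and 19.0 CPM. The LGR5 call in KK was lost without pTRE replicate 3 (log2 0.91), KK replicate 1 (0.98), or KK replicate 3 (0.96), and the GPC3 call in WT without pTRE replicate 2 (0.99).

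In the cytoplasm, 1 of 24 tested transducers was called in WT, 2 in KK, and 2 in R109K. Beside these stand 11.8%, 10.9%, and 7.19% of all tested genes. NKD1, a feedback inhibitor that binds Dishevelled, rose in all 3 lines (log2 2.01, 2.00, and 1.49 in WT, KK, and R109K). DACT1 fell in KK (log2 -1.19), and NKD2 rose in R109K (1.15). DACT1 had -0.95 in WT and -0.97 in R109K, and it was called in WT without WT replicate 1 (-1.06) and in R109K without R109K replicate 1 (-1.03) or 3 (-1.06). CTNNB1, which encodes β-catenin, had log2 values of -0.18, -0.16, and -0.09, and AXIN2, a scaffold of its destruction complex and a feedback target, had 0.27, 0.06, and -0.03, none called.

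In the nucleus, 3 of 14 tested factors were called in WT, 2 in KK, and 1 in R109K. The shares over all tested genes, here and for the lists that follow, were 11.8%, 10.9%, and 7.19%. LEF1 stood at 11.6 to 12.3 CPM in the pTRE samples and rose to 33.4 ± 1.46 in R109K, 43.4 ± 4.69 in WT, and 47.2 ± 3.01 in KK (log2 1.47, 1.85, and 1.97). The co-repressor TLE2 rose in WT and KK (log2 1.18 and 1.15), and PYGO1 rose in WT (1.20). In KK the log2 value of PYGO1 was 1.00 and just under 2-fold, and it was called without pTRE replicate 1 (1.05), pTRE replicate 2 (1.04), or KK replicate 2 (1.15). Of 16 tested feedback and target genes of β-catenin, 7 were called in WT (4 higher, 3 lower), 8 in KK (5 higher, 3 lower), and 6 in R109K (4 higher, 2 lower). NOTUM, NKD1, LEF1, LGR5, and RNF43 are also counted in the lists above. NOTUM, NKD1, LEF1, and LGR5 were among the genes that rose and RNF43 among those that fell in each line, so that the list did not move in 1 direction. Of 14 planar polarity genes, 1 was called in each line, INTU in WT and KK (higher, named after its values were seen) and PRICKLE2 in R109K. PRICKLE2, at 13.4 ± 0.776 CPM in pTRE and 6.15 ± 1.49 in R109K, fell in R109K (log2 -1.12), a call lost without R109K replicate 2 (-0.93). In KK it stood at -0.98 and was called without pTRE replicate 3 (-1.02) or KK replicate 1 (-1.08).

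**Figure D4:**
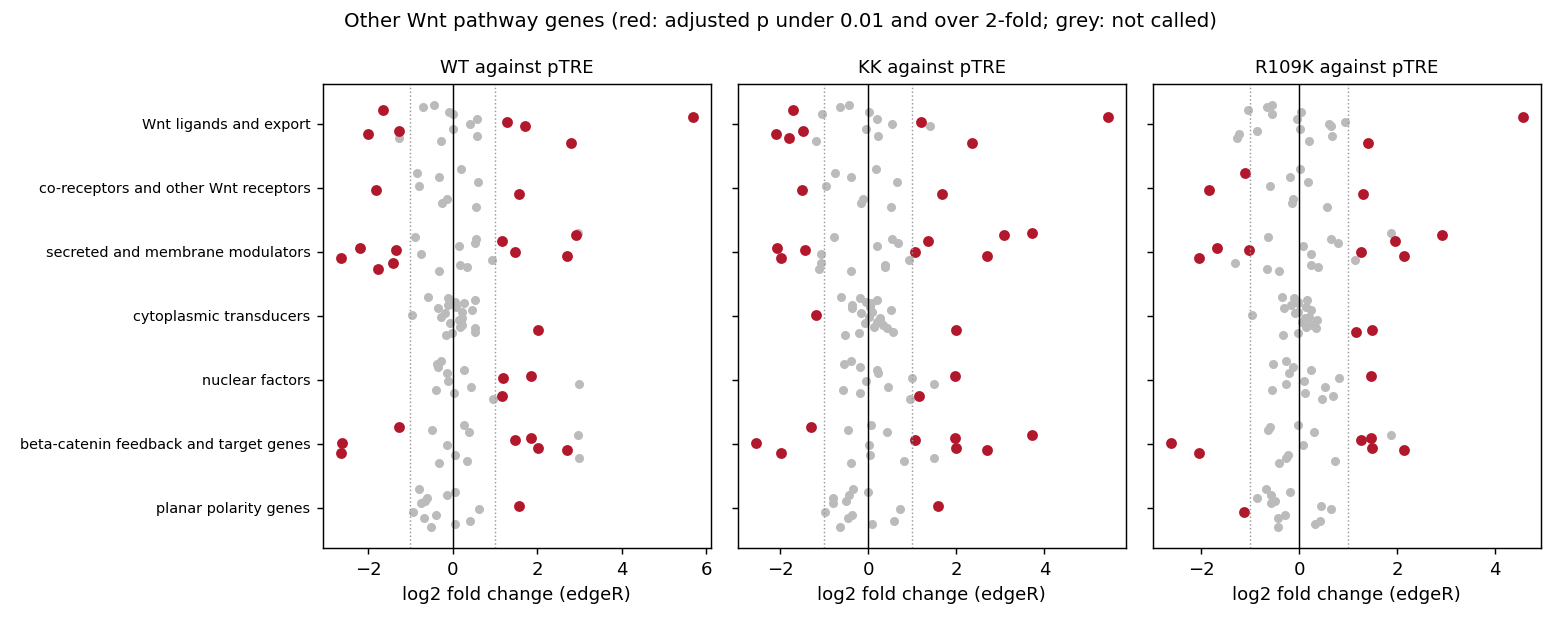
Log2 fold change from edgeR (horizontal axis) of the tested genes of 7 Wnt pathway lists (vertical axis) in each E2F1 line against pTRE, 1 point per gene, with red points for called genes. Called genes lie on both sides of 0 in the ligands of WT and KK, in the modulators, and in the β-catenin targets, while 1 or 2 of the 24 cytoplasmic transducers were called in each line.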

How the data were processed

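RNA-seq was measured in 12 samples, 3 of each line. Per the labels and methods, the authors trimmed reads with Trim Galore 0.4.3, aligned them to hg19 with STAR 2.5.1, and used DESeq2 1.16.1, and the deposited values are raw counts of reads per gene symbol, with 5 summary lines, which took 34.3% to 68.8% of reads and were left out. The annotation and the strand setting are not given in the sources used here.

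In R 4.3.3, edgeR 4.0.16 was run on the counts, after filterByExpr and TMM, with a single quasi-likelihood fit to the 12 samples in which every line had its own mean. Genes were called at an adjusted p under 0.01 and over 2-fold, the study's thresholds. The tests were first run on simulated counts. The replicates are described as biological, and p-values measure the spread between them. Named genes were all members, LRP5, LRP6, CTNNB1, AXIN2, SMO, E2F1, at most 5 called genes with the largest changes in each Wnt list (mean count of at least 50), and the 5 genes most like FZD2. The members and lists were chosen with earlier results of these data known. Gene models and promoters came from GENCODE and GRCh37. The promoters of 2 members are not reported here. Alternatives were DESeq2 1.42.0, RLE, other filters, the 6 samples alone, a replicate block, glmTreat, and leaving out single replicates. Figures and summaries used Python 3.11.15.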

Additional observations from a re-analysis of the deposited data

How the results depend on the processing

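Of 696 values of the 9 tested Frizzled genes under the alternatives, 639 kept their direction and their side of the threshold, 13 gained a call, 8 lost one, and 36 changed sign. Of 117 counts of called genes, 107 stayed within 1.5 times or stayed at 0. The 107 include every Frizzled count between the E2F1 lines, which was 0 under all settings and so has no ratio. Tested against 2-fold itself with glmTreat, the called Frizzled genes numbered 1 in WT, 1 in KK, and 0 in R109K, and the Wnt pathway genes 10, 8, and 6, since this test asks for a change that exceeds 2-fold beyond its error. With at least 10 counts in every sample, 1 Frizzled gene was called in R109K, because FZD10 was then not tested. When single replicates were left out, the called Frizzled genes numbered 3 to 4 in WT, 2 to 4 in KK, and 1 to 3 in R109K. The called Wnt pathway genes then numbered 19 to 27 in WT, 20 to 25 in KK, and 14 to 16 in R109K. With all samples they numbered 25, 24, and 17, so that each omission lowered the count in R109K.

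Whether samples of the same replicate number belong together is not settled by these values. The correlation of deviations from the line means over the 18 same-numbered pairs ran from -0.295 to 0.47 (mean 0.0436) and exceeded 0.1 in 5. Over the 36 pairs with different numbers it ran from -0.383 to 0.314 (mean -0.0235) and exceeded 0.1 in 9. A replicate block lowered the standard error of FZD6 in WT against pTRE from 0.1484 to 0.1025, and that of FZD1 from 0.1307 to 0.1003. With a replicate block in the model, the called Frizzled genes numbered 3, 2, and 2 in WT, KK, and R109K and 0 between the E2F1 lines, the Wnt pathway genes 22, 22, and 17, and FZD6 between KK and WT changed sign (-3e-04).

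All values that changed sign lay near 0. FZD7 in WT was -0.0024 with no filter, and FZD6 between KK and WT was -3e-04 with at least 10 counts. Leaving out single replicates gave these ranges of log2 differences. FZD3 ran from -0.0131 to 0.1726 in WT, -0.0632 to 0.1337 in KK, and -0.0397 to 0.1555 in R109K against pTRE. Between R109K and WT it ran from -0.1078 to 0.072, between R109K and KK from -0.0764 to 0.1171, and between KK and WT from -0.1405 to 0.0504. FZD6 ran from -0.1713 to 0.0248 in WT, -0.1734 to 0.0625 in KK, and -0.0717 to 0.1083 in R109K against pTRE. Between R109K and WT it ran from -0.0104 to 0.1916, between R109K and KK from -0.0418 to 0.1872, and between KK and WT from -0.1031 to 0.1456. FZD4 ran from -0.1388 to 0.0372 in KK and -0.0322 to 0.1406 in R109K against pTRE, and FZD7 from -0.0907 to 0.0821 in WT. Between KK and WT, FZD1 ran from -0.1432 to 0.0594, FZD5 from -0.1547 to 0.007, FZD9 from -0.0664 to 0.362, and FZD10 from -0.3613 to 0.0881. FZD2, which has no test, ran from -0.0229 to 0.2019 there. Between R109K and KK, FZD5 ran from -0.1689 to 0.0045 and FZD9 from -0.1132 to 0.235. The cause of these sign changes was not tested. Depth limits FZD9 and FZD10 most, with at most 86 reads in any sample.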

Other observations

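FZD10-AS1, a long noncoding RNA gene named for its place beside FZD10 on the opposite strand, was counted as a gene of its own and was looked at after its values were seen. Its mean level was 0.302 ± 0.216 CPM (SD, n = 3) in pTRE, 1.78 ± 0.311 in R109K, 2.08 ± 0.585 in WT, and 1.59 ± 0.178 in KK. FZD10-AS1 rose in all 3 E2F1 lines, by a log2 fold change of 2.72 in WT (adjusted p = 9.98e-05 from edgeR), 2.37 in KK (adjusted p = 3.42e-04), and 2.52 in R109K (adjusted p = 2.86e-04). Between R109K and WT, FZD10-AS1 differed by -0.20 (95% interval -0.93 to 0.53) and FZD10 by 0.48 (-0.42 to 1.38). Both intervals include no difference, and they overlap each other. No exon of another counted gene overlaps those of FZD10 in the annotation used here.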
